A study of Homo sapiens with 8 samples.

Results

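The genes described here are the matrix metalloproteases (MMP), the ADAM and ADAMTS proteases and their tissue inhibitors (TIMP). Members were taken by symbol: MMP, ADAM or ADAMTS followed by a number, and TIMP1 to TIMP4. Of 63816 gene entries in the expression table, 79 carried such a symbol, and these gave 69 genes: 24 MMP, 22 ADAM, 19 ADAMTS and 4 TIMP genes. A symbol stood on more than 1 entry for 10 of them, and the entry with the highest mean was then used.

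RNA was sequenced from 8 libraries that the labels name as Caco-2, an established human colorectal adenocarcinoma line, stably transfected and selected. Of these, 4 carried the empty vector pcDNA3.1 and 4 carried pcDNA3.1 with full-length SIGLEC12, the gene for Siglec-XII, a cell-surface receptor that Caco-2 cells do not express on their own. The comparison asked which transcripts differ when Siglec-XII is present. Each group came from its own transfection and selection of stable clones, and what separates the transfected populations by chance cannot be told apart from what Siglec-XII itself does. The labels do not say whether the 4 libraries of a group came from separate cultures, and the study's methods speak of technical replicates, so p-values measure only the spread between these libraries.

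MMPs, ADAMs and ADAMTS proteases are zinc-dependent enzymes of the metzincin clan. MMPs cut collagens and other matrix proteins, ADAMs release the outer parts of membrane proteins such as growth factors, Notch receptors and cadherins, and ADAMTS proteases are secreted and trim proteoglycans, procollagens and other matrix components. TIMPs bind the active site of these enzymes, and TIMP2 also bridges MMP14 on the cell surface to the proenzyme of MMP2, which MMP14 then activates. In the intestine these enzymes take part in wound repair and invasion, where stromal and immune cells supply many of the secreted MMPs.

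As a check of the labels, SIGLEC12 lay between 0.0399 and 0.122 TPM (transcripts per 1e+06 transcripts) in the empty vector libraries and between 1582 and 1734 TPM in the Siglec-XII libraries. The difference in log2(TPM + 1) was 10.59 (exact permutation test, two-sided, p = 0.0286, which is the lowest possible with 4 libraries a group). Of 11 intestinal epithelial markers, whose sum was 163 to 186 TPM with the empty vector and 190 to 215 TPM with Siglec-XII, 9 had a mean under 1 TPM, and KRT20 and FABP1 were listed at 0 in every library, whereas CDX1 and CDX2 lay at 128 to 165 and 34.0 to 48.8 TPM. The epithelial genes EPCAM, CDH1, KRT8 and KRT18 lay between 265 and 4772 TPM in the 8 libraries, with a sum of 7270 to 8262 TPM and 8768 to 9067 TPM. The trophoblast markers GATA3, TFAP2C and KRT7 lay between 152 and 479 TPM, HLA-G and ERVW-1 between 1.08 and 3.04 TPM, and the hormone genes CGA and CGB5 had means under 1 TPM. The list of 7 summed to 696 to 873 TPM and 750 to 830 TPM. Of the fibroblast markers, 6 of 7 had a mean of at least 1 TPM, the highest being COL1A1 at 41.9 to 59.1 TPM. Of the 4 immune markers, PTPRC and CD3E stayed under 0.1 TPM, and CD14 and CD68 had means of 1.30 and 1.22 TPM with the empty vector and 1.42 and 1.27 TPM with Siglec-XII. Of the 3 endothelial markers only CDH5 had a mean of at least 1 TPM, and their sum was 5.29 to 11.6 TPM and 6.39 to 7.18 TPM. Summed over the fibroblast list, the range was 99.1 to 117 TPM with the empty vector and 112 to 123 TPM with Siglec-XII, and for the immune list 1.83 to 3.06 and 1.56 to 3.20 TPM. The name of the line rests on the labels. Apart from CDX1 and CDX2 the intestinal list was under 1 TPM on average, while GATA3, TFAP2C and KRT7 were high. The identity of the cells was not tested. The part of these levels in the results below was not tested, and in bulk RNA a change in the share of cells cannot be told apart from a change of RNA per cell.

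The protease genes divided into a small expressed set and a large set at low levels or 0. Only 22 of the 69 genes reached 1 TPM in at least 4 of the 8 libraries, the filter for testing: 7 MMP, 8 ADAM, 4 ADAMTS and 3 TIMP genes. Of these, 18 reached 1 TPM in all libraries. In the other 4 genes the libraries of 1 group met the filter by themselves and those of the other group did not: MMP2, MMP24 and ADAM22 through Siglec-XII, with 3, 2 and 1 empty vector libraries at 1 TPM or more, and MMP17 through the empty vector. Another 43 of the 69 stayed under 1 TPM in every library, 23 of them under 0.1 TPM, and 6 were listed at 0 throughout (MMP26, MMP27, ADAM2, ADAM6, ADAM7 and ADAM30). The filter separated near neighbours: ADAM22, which passed, had a mean of 1.04 TPM with 5 libraries at 1 TPM or more, and MMP24 passed with 1.23 TPM and 6 libraries. ADAM11, a brain protein without protease activity, did not pass, with 1.06 TPM and 3 libraries.

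**Figure D1:**
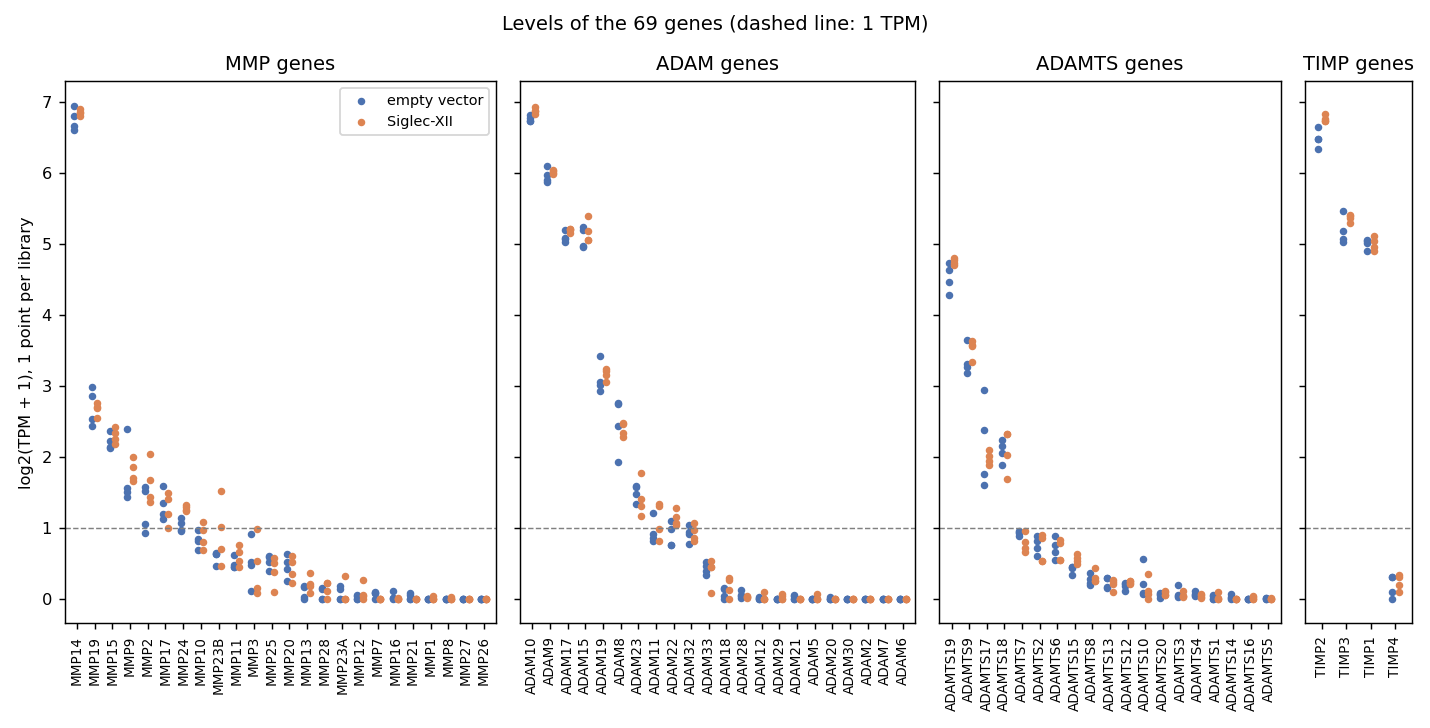
Levels of the 69 genes as log2(TPM + 1) on the y axis, with genes along the x axis in order of mean level within each family and 1 point per library for the empty vector (blue) and Siglec-XII (orange). Each of the 3 protease families has a few expressed genes and a long row of genes below the dashed line at 1 TPM.

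Expression within each family was carried by a few genes. ADAM10, the sheddase of Notch and E-cadherin, had a mean of 112 TPM over the 8 libraries, MMP14, the membrane-type matrix metalloprotease that activates proMMP2, had 111 TPM, and TIMP2 had 98.4 TPM. These 3 exchanged places between libraries, with ranks among the members from 1 to 3. ADAM9, a membrane metalloprotease-disintegrin, was 4th in every library at 62.6 TPM. TIMP3 (38.0 TPM), which binds to the matrix and inhibits ADAM17, ADAM17 itself (34.5 TPM), the sheddase of tumor necrosis factor and EGF receptor ligands, ADAM15 (34.3 TPM) and TIMP1 (31.1 TPM) followed, and their ranks overlapped. ADAMTS19, a secreted protease of little-known substrates, was 9th in every library at 24.1 TPM.

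MMP14 alone held 84.1% to 85.9% of the summed TPM of the 24 MMP genes in every library. ADAM9, ADAM10, ADAM15 and ADAM17 together held 92.4% to 93.9% of the ADAM sum. ADAMTS19 held 54.0% to 60.3% of the ADAMTS sum in 7 libraries and 43.0% in empty vector replicate 2. The family sums were 114 to 146 TPM for MMP, 247 to 276 TPM for ADAM, 38.6 to 47.6 TPM for ADAMTS and 140 to 185 TPM for TIMP genes.

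Most classes of secreted MMPs lay below the filter. None of the 3 collagenases (MMP1, MMP8 and MMP13), 2 matrilysins (MMP7 and MMP26) or 3 stromelysins (MMP3, MMP10 and MMP11) passed the filter. Both gelatinases passed, at low levels: MMP9 had a mean of 2.48 TPM and MMP2 of 1.80 TPM. Of the 6 membrane-type MMPs, 4 passed. None of the 3 procollagen N-propeptidases (ADAMTS2, ADAMTS3 and ADAMTS14) passed, and of 7 proteoglycan-cleaving ADAMTS genes ADAMTS9 did, at 9.93 TPM. Of 12 ADAMs with a catalytic site 6 passed, and of 8 without one ADAM22 and ADAM23 did. These counts use 1 entry per gene, and with the 2 entries of each summed ADAMTS2 and ADAM32 passed as well.

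The genes below the filter included a whole chromosomal cluster. On chromosome 11 (GRCh37, 102391239 to 102826461, a span of 435 kb) lie MMP7, MMP20, MMP27, MMP8, MMP10, MMP1, MMP3, MMP12 and MMP13. All 9 failed the filter in these cells. Their highest mean was 0.818 TPM, for MMP10, whose highest single library reached 1.11 TPM, and 4 of the 9 stayed under 0.1 TPM in every library.

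The promoters of expressed and low members are set side by side below, to show how those printed differ in CpG content and motifs. The 5 were chosen after the levels and motifs were seen, and the cluster genes among them are 2 of the 3 that hold both motifs. Each run is the 250 bases before the gene start from RefSeq (GRCh38.p14), read 5′ to 3′ on the strand of the gene. The first 3 are of expressed genes, ADAM10 (chr15:58749708-58749957, minus strand), MMP14 (chr14:22836335-22836584, plus strand) and TIMP3 (chr22:32801455-32801704, plus strand), with CpG dinucleotides in capitals. The last 2 are of cluster genes below the filter, MMP7 (chr11:102530748-102530997, minus strand) and MMP10 (chr11:102780629-102780878, minus strand), with the motifs TATAAA and TGANTCA in capitals. TGANTCA, with any base as N, is looser than the AP-1 motif, which is TGAGTCA or TGACTCA. The MMP7 stretch has that form, and the MMP10 stretch, TGAATCA, does not.
ADAM10: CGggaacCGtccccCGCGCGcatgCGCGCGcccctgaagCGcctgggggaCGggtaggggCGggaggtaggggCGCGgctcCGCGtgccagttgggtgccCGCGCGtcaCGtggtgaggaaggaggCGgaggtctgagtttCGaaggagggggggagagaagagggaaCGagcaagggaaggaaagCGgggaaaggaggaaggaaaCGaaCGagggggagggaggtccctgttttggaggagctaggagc
MMP14: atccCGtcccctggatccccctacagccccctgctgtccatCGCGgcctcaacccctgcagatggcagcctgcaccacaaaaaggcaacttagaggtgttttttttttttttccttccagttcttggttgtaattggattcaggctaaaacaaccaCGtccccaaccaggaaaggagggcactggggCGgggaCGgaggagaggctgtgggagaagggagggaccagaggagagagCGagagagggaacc
TIMP3: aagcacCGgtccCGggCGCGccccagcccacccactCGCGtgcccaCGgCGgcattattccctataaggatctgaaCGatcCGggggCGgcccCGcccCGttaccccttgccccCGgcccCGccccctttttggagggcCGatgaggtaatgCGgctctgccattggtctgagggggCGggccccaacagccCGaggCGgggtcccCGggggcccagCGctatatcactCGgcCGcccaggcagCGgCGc
MMP7: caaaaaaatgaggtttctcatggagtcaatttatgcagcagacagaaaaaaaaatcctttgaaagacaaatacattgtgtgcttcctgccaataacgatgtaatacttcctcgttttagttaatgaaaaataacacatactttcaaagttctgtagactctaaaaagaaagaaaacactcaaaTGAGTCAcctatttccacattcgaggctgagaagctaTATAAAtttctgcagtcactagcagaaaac
MMP10: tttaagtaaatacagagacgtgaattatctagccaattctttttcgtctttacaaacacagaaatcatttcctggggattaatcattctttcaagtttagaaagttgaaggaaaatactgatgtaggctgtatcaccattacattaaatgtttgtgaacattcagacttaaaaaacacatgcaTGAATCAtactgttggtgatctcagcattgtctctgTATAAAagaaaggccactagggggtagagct

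The 250 bases held 25 CpG dinucleotides in ADAM10, 26 in TIMP3 and 7 in MMP14, against 3 in MMP7 and 2 in MMP10. In the MMP7 and MMP10 sequences TATAAA began 30 and 31 bases before the gene start, and TGANTCA began 67 bases before it in both. A window of 250 bases before to 50 after the start was found for 39 of the 69 genes (40 windows, with 2 for ADAMTS10). TIMP2, ADAM9, ADAMTS9, MMP2, MMP9, MMP17 and MMP19, which passed the filter, were not among them. Both motifs were searched on both strands. Of the 15 windows of genes that passed the filter, 0 held TATAAA and 0 held TGANTCA, with 10 to 44 CpG dinucleotides. Of the 25 windows of genes that did not pass, 8 held TATAAA, 4 held TGANTCA and 3 held both, and their CpG counts ran from 0 to 47. The 3 with both were MMP7, MMP10 and MMP20 of the chromosome 11 cluster. Of the 9 cluster genes 5 had a window, with 2 to 4 CpG dinucleotides each, and of these MMP8 held TATAAA alone and MMP27 neither motif. MMP1, MMP3, MMP12 and MMP13 had no window. Among all 35116 windows of the table, 11.5% held TATAAA, 7.71% TGANTCA and 1.31% both, and the median CpG count was 14, against 30 in the members that passed and 12 in those that did not. ADAMTS14, which did not pass, had 42, so a high count was found on both sides of the filter. ADAMTS2 had 47, the highest count of any member, and passed only when its 2 entries were summed.

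**Figure D2:**
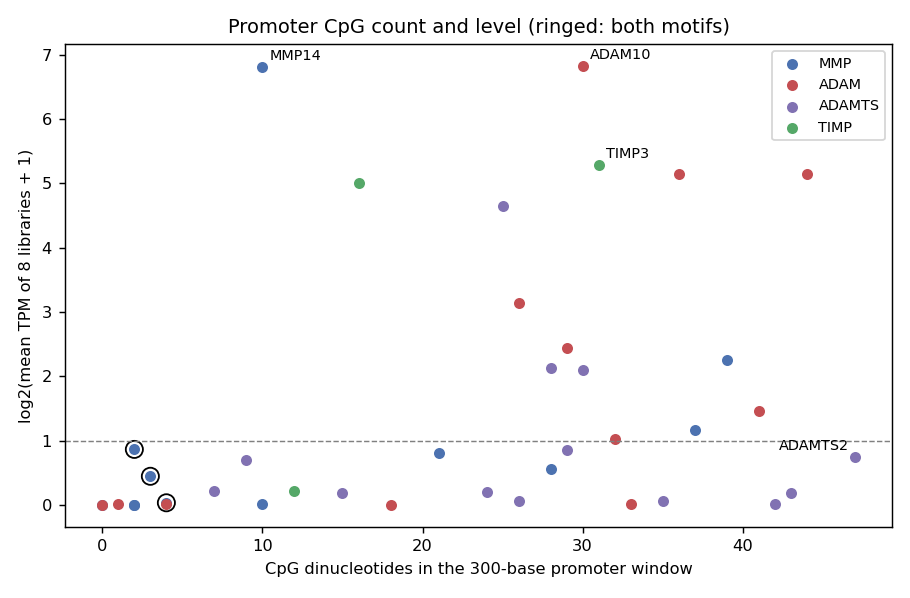
CpG dinucleotides in the 300-base promoter window (x axis) against log2(mean TPM of 8 libraries + 1) (y axis) for 40 windows of 39 genes, coloured by family, with a dashed line at 1 TPM and rings around windows that hold both TATAAA and TGANTCA. The ringed windows are of MMP7, MMP10 and MMP20, all below the line, and windows with 30 or more CpG dinucleotides lie on both sides of it.

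Siglec-XII came with small differences in these genes. By limma, 0 of the 22 tested genes had an adjusted p under 0.05, against 0.648% (101) of the 15590 entries tested. In 3 genes, TIMP2, ADAM10 and ADAMTS19, the unadjusted p was 0.05 or less, all higher with Siglec-XII. Among all tested entries 13.9% were higher and 2.61% lower at that p. For TIMP2, ADAM10 and MMP24, 3 genes, every Siglec-XII library lay above every empty vector library, as did 9.17% of all tested entries, and 0 lay below, as did 1.68%. MMP24 had met the filter through its Siglec-XII libraries, which favours such a separation. The number of members without overlap was 9 when empty vector replicate 2 was left out and 6 when replicate 4 of that group was. With 1 library fewer, groups separate more easily by chance. The share over all tested entries was not counted for those fits, so these numbers have no background beside them. Of the 22 genes, 16 had a higher and 6 a lower mean with Siglec-XII (72.7% higher, against 68.1% of all tested entries). Genes that met the filter through 1 group went with that group: MMP2, MMP24 and ADAM22 were higher and MMP17 lower. The median log2 fold change of the 22 genes came to 0.08, and that of all tested entries to 0.07. After quantile normalization the split was 14 to 8, and with the trend of fold change with transcript length removed it was 11 to 11. The median of all tested entries also moved in these fits, from 0.07 to 0.01 and to -0.0003. The share of all entries that were higher was not counted for them, so these splits have no background beside them.

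**Figure D3:**
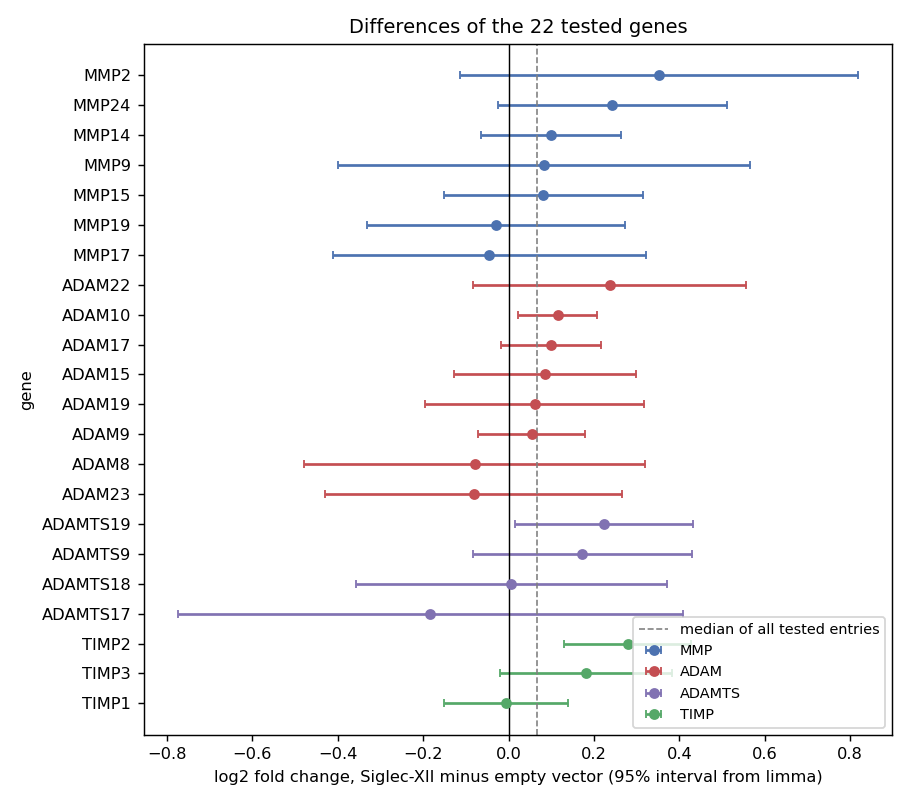
Log2 fold change (Siglec-XII minus empty vector) with its 95% interval from limma for the 22 tested genes, ordered within family and coloured by family; the solid line marks 0 and the dashed line the median of all tested entries, 0.07. The intervals of TIMP2, ADAM10 and ADAMTS19 lie above 0, and the other 19 include 0.

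Among the inhibitors, TIMP2 differed most. TIMP2 (ENSG00000035862, chromosome 17, 76849059 to 76921469 in GRCh37, minus strand) lay at 88.7, 99.5, 88.0 and 79.7 TPM in empty vector replicates 1 to 4 and at 105, 108, 114 and 105 TPM in Siglec-XII replicates 1 to 4. Every Siglec-XII library was above every empty vector library, and empty vector replicate 2 came nearest. The means were 89.0 ± 8.12 and 108 ± 3.96 TPM (SD, n = 4), and the log2 fold change was 0.28 (SE 0.07, 95% interval 0.13 to 0.43, limma unadjusted p = 0.00201, adjusted p = 0.105). Without empty vector replicate 2 it was 0.33 with an adjusted p of 0.0402. Since that library came nearest to the Siglec-XII group, leaving it out was bound to raise the difference. Under every other alternative the adjusted p by limma was above 0.05. The log2 fold change was 0.20 with the length trend removed (adjusted p = 0.256) and 0.23 after quantile normalization (adjusted p = 0.209). At equal upper quartiles it was 0.22 (adjusted p = 0.230).

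TIMP3 lay at 35.4, 43.0, 32.7 and 31.7 TPM with the empty vector and at 40.4, 38.4, 41.5 and 41.1 TPM with Siglec-XII. Empty vector replicate 2 was above all other libraries, so the groups overlapped, and the log2 fold change was 0.18 (95% interval -0.02 to 0.38, adjusted p = 0.350). TIMP1, an inhibitor of most soluble MMPs, lay at 31.2 ± 1.58 and 31.1 ± 2.11 TPM (SD, n = 4), and its log2 fold change was -0.01 (interval -0.15 to 0.14, adjusted p = 0.973). TIMP4 reached at most 0.265 TPM in any library. TIMP2 held 56.6% to 57.8% of the TIMP sum in the empty vector libraries and 58.4% to 61.3% in the Siglec-XII libraries. The TIMP2 share was thus higher in each Siglec-XII library, whereas the ratio of TIMP2 to MMP14 TPM overlapped, at 0.792 to 0.923 and 0.903 to 1.02.

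MMP14 and MMP2, which act together with TIMP2, also had adjusted p-values above 0.05. MMP14 (ENSG00000157227, chromosome 14, 23305769 to 23318250, plus strand) lay at 96.1, 123, 111 and 101 TPM with the empty vector and at 114, 119, 111 and 115 TPM with Siglec-XII. The highest value was that of empty vector replicate 2, so the groups overlapped, and the log2 fold change was 0.10 (95% interval -0.06 to 0.26, adjusted p = 0.527). MMP2, gelatinase A (ENSG00000087245, chromosome 16, 55423612 to 55540603, plus strand), lay at 0.908, 1.99, 1.87 and 1.08 TPM and at 1.57, 3.12, 1.70 and 2.18 TPM. Its log2 fold change of 0.35 was the largest of the MMP genes tested, with an interval of -0.11 to 0.82 (adjusted p = 0.425), and its groups overlapped. MMP2 had met the filter through its 4 Siglec-XII libraries, whereas 3 empty vector libraries reached 1 TPM, which favours a higher value with Siglec-XII.

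MMP9, gelatinase B, lay at 1.85, 4.28, 1.95 and 1.69 TPM with the empty vector and at 2.26, 2.62, 2.17 and 3.01 TPM with Siglec-XII. Empty vector replicate 2 was the highest of all 8, and the other 3 empty vector libraries were below every Siglec-XII library. The log2 fold change was 0.08 (interval -0.40 to 0.56, adjusted p = 0.882). Without empty vector replicate 2 it was 0.31, with an adjusted p of 0.254. MMP24, a membrane-type MMP known from neurons, lay at 1.1, 1.2, 0.93 and 0.97 TPM and at 1.5, 1.4, 1.4 and 1.4 TPM. The groups did not overlap, yet both were near 1 TPM, where the Siglec-XII libraries met the filter and the empty vector libraries did not, and the log2 fold change of 0.24 had an adjusted p of 0.347. MMP15, another membrane-type MMP, and MMP19, a widely expressed secreted one, had log2 fold changes of 0.08 and -0.03 at mean levels of 3.79 and 5.50 TPM. The remaining tested MMP, MMP17, had -0.04.

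**Figure D4:**
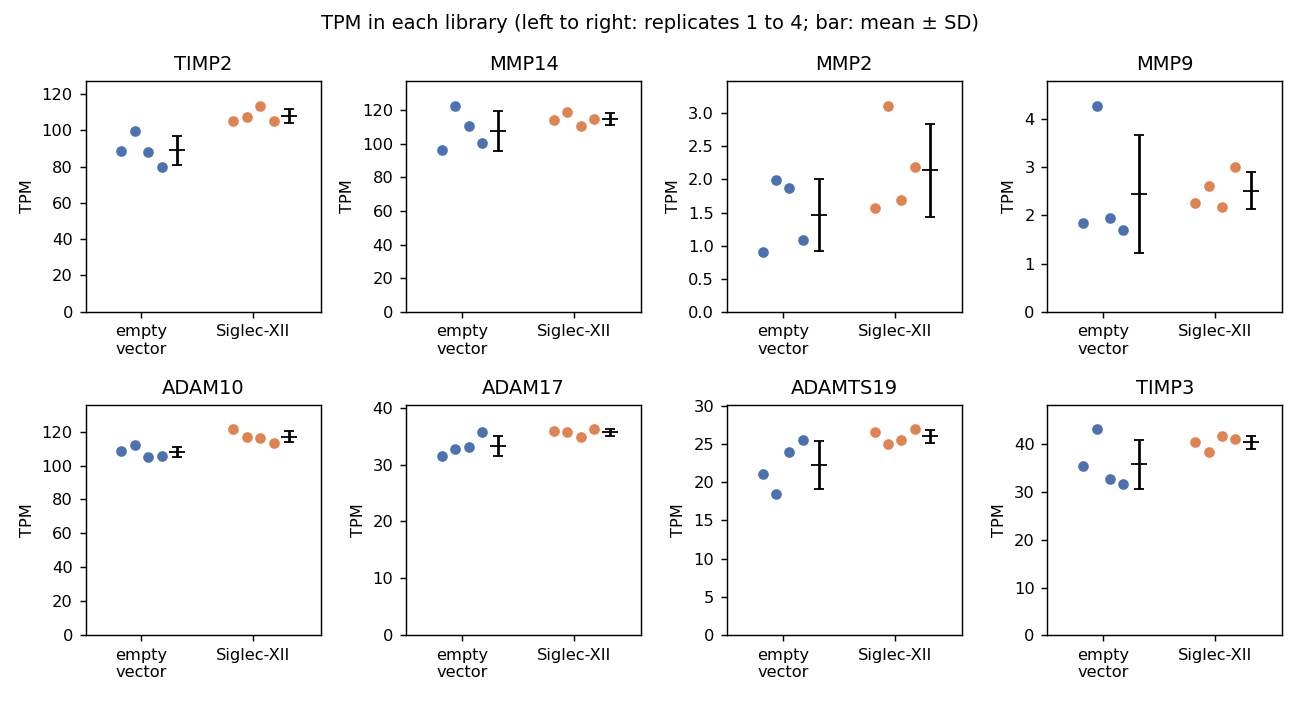
TPM (y axis, from 0) in each of the 4 empty vector (blue) and 4 Siglec-XII (orange) libraries for 8 genes, replicates 1 to 4 from left to right, with the group mean and SD as black bars. TIMP2 and ADAM10 separate by group, while empty vector replicate 2 is high in MMP9, TIMP3 and MMP14 and low in ADAMTS19.

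Of the sheddases, ADAM10 was higher with Siglec-XII by a small amount. ADAM10 (ENSG00000137845, chromosome 15, 58881008 to 59041990, minus strand) lay at 109, 112, 105 and 106 TPM with the empty vector and at 121, 117, 116 and 113 TPM with Siglec-XII. The groups did not overlap, and the gap between the nearest libraries was narrow. The log2 fold change was 0.11 (SE 0.04, interval 0.02 to 0.21, limma unadjusted p = 0.0209, adjusted p = 0.222). The transcript named for ADAM10 is 11158 bases long, and with the length trend removed the log2 fold change was -0.0045. That step also moved the median of all tested entries, from 0.07 to -0.0003, and the part of transcript length in the ADAM10 difference was not tested. By limma the ADAM10 log2 fold change was 0.06 after quantile normalization (adjusted p = 0.630) and 0.05 at equal upper quartiles (adjusted p = 0.646). With the mitochondrial and most abundant entries left out it was 0.07 (adjusted p = 0.488), and under these 4 alternatives the groups overlapped.

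ADAM17 lay at 31.5, 32.7, 33.1 and 35.6 TPM with the empty vector and at 35.9, 35.8, 34.8 and 36.2 TPM with Siglec-XII. Empty vector replicate 4 fell within the Siglec-XII range, and the log2 fold change was 0.10 (interval -0.02 to 0.22, adjusted p = 0.373). ADAM9 and ADAM15, both membrane proteases with disintegrin domains, had log2 fold changes of 0.05 (interval -0.07 to 0.18) and 0.09 (interval -0.13 to 0.30). ADAM22, a receptor for the secreted protein LGI1 that lacks protease activity, had the largest log2 fold change of the ADAMs, 0.24, at about 1 TPM, with an interval of -0.08 to 0.56. It passed the filter through its 4 Siglec-XII libraries, whereas 1 empty vector library reached 1 TPM. The other tested ADAM genes, ADAM8, ADAM19 and ADAM23, had log2 fold changes from -0.08 to 0.06.

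Of the ADAMTS proteases, ADAMTS19 (ENSG00000145808, chromosome 5, 128795974 to 129074376, plus strand) lay at 21.1, 18.5, 23.9 and 25.5 TPM with the empty vector and at 26.5, 25.0, 25.5 and 26.9 TPM with Siglec-XII. The empty vector libraries were spread more widely than the Siglec-XII libraries, and the highest of them reached into the Siglec-XII range. The log2 fold change was 0.22 (SE 0.09, interval 0.02 to 0.43, limma unadjusted p = 0.0381, adjusted p = 0.275). ADAMTS9, which cleaves versican and aggrecan, lay at 8.94, 11.5, 8.67 and 8.11 TPM and at 10.9, 9.07, 11.4 and 10.8 TPM, a log2 fold change of 0.17 (interval -0.08 to 0.43). ADAMTS17 lay at 2.03, 6.66, 4.19 and 2.39 TPM with the empty vector and at 2.86, 3.29, 2.70 and 3.02 TPM with Siglec-XII, so that its log2 fold change of -0.18 rested on empty vector replicate 2 and became 0.07 without it. ADAMTS18, at 3.28 TPM on average, had a log2 fold change of 0.01.

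Empty vector replicate 2 was the highest empty vector library for 15 of the 22 tested genes, against 34.9% of all tested entries, and the lowest for 1 of them. It was highest for MMP2, MMP9, MMP14, MMP19, TIMP2, TIMP3, ADAM9, ADAM10 and ADAMTS17 among others. Without it, 6 genes had an unadjusted p of 0.05 or less (MMP9, MMP14, ADAM10, ADAMTS9, TIMP2 and TIMP3, all higher), in place of 3, and TIMP2 had an adjusted p under 0.05. Empty vector replicate 2 was the highest empty vector library for each of these 6, so leaving it out was bound to raise their differences. For ADAMTS19, where it was the lowest, the log2 fold change fell from 0.22 to 0.14. Over all entries tested, leaving out this library raised the share at an unadjusted p of 0.05 or less from 16.5% to 19.4% and the number called from 101 to 159. The part of this library in the results was not tested beyond leaving it out.

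Genes that act on these proteases were read from a list of 50: convertases that remove propeptides, the plasminogen system, partners of ADAM10 and ADAM17, clearance receptors and related metzincins. Of these, 32 passed the filter, and 0 had an adjusted p under 0.05 by limma. At an unadjusted p of 0.05 or less, 10 were higher and 1 lower, beside 13.9% and 2.61% of all tested entries. The median log2 fold change of the 32 was 0.12, against 0.07 of all tested entries. These genes and those named below were read from the main fit only, not under the alternatives. Quantile normalization lowered the median of all tested entries to 0.01. The 4 with the highest levels were SPINT2, BSG, ST14 and SPINT1, at 424, 245, 227 and 209 TPM. SPINT1 and SPINT2 are inhibitors of the membrane serine protease matriptase, which ST14 encodes, and BSG is the inducer of MMPs known as CD147.

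The partners of ADAM10 and ADAM17 were all expressed: 9 of 9 passed the filter, 0 were called, and 4 were higher at an unadjusted p of 0.05 or less, beside 13.9% of all tested entries. TSPAN17, a tetraspanin that escorts ADAM10 to the surface, had a log2 fold change of 0.30 (limma unadjusted p = 0.0152, adjusted p = 0.201). FRMD8, which stabilises ADAM17 at the surface together with the iRhom proteins, had 0.28 (unadjusted p = 0.0232, adjusted p = 0.232). The iRhom genes RHBDF1 and RHBDF2 had -0.04 and 0.06.

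Among the other groups, PCSK7, a proprotein convertase, had a log2 fold change of 0.27 (limma unadjusted p = 0.00490, adjusted p = 0.137), and LRP1, the endocytic receptor that clears proteases and TIMPs, had 0.31 (unadjusted p = 0.0101, adjusted p = 0.173). BSG had 0.17 with an adjusted p of 0.219. ADAMTSL4, an ADAMTS-like protein of the fibrillin network without a protease domain, was the member of the list that was lower at this p, with -0.29 (unadjusted p = 0.0131, adjusted p = 0.193). All 4 tested genes of the plasminogen system had log2 fold changes between 0.04 and 0.15, and none of these reached an unadjusted p of 0.05.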

How the data were processed

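The authors quantified paired reads of 100 bp, about 25000000 to 40000000 per library per the labels, with kallisto (0.45.0 in the submitters' processing notes) against hg19 and deposited 1 table of log2(TPM + 1) for 63816 gene entries in 8 libraries. Every column sums to 1e+06 TPM, so the read depth behind a value is unknown, no interval from counts could be given and low values carry more error. The labels name a total RNA kit and the paper's methods an mRNA kit. The description of the series speaks of fewer cultures per condition than the 4 libraries listed. A TPM value is relative to the rest of the RNA of its library.

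Members and gene lists were chosen with earlier results of these data known. The comparison used limma 3.58.1 (R 4.3.3, lmFit, then eBayes with a mean trend) on the deposited log2 values, over the 15590 entries at 1 TPM or more in at least 4 libraries, with Benjamini-Hochberg adjustment over all of them and a threshold of 0.05. No block was used, and the count test of the study's methods could not be applied to these values. Fold changes are on the log2(TPM + 1) scale and understate changes of low genes. For SIGLEC12 an exact permutation test, two-sided, was used. Positions and transcript lengths came from GENCODE lifted to GRCh37. The length is that of the 1 transcript named for an entry, such as 349 bases for ADAMTS18 and 1181 for ADAM15. Whether that transcript is the one expressed was not tested, and the length trend rests on it. Of the 69 members, 3 had no entry in GENCODE. Of 10 symbols on more than 1 entry, 3 had identical values above 0 on each entry, so that their level is divided. Summed over entries, ADAMTS2 and ADAM32 also passed the filter.

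Named in the text were members with an adjusted p under 0.05 or an unadjusted p of 0.05 or less, the 4 highest of the MMP, ADAM and ADAMTS families, all TIMPs, those next to the filter and the largest change in each family. Of the related list the 6 with the smallest unadjusted p and the 4 highest were named. Other names, among them the genes of whole classes or of the chromosome 11 cluster, were given after their values were seen. The fit was tested on simulated data with known changes, 50 of each size. It called 8 of the changes of 0.25 in log2 (16%), 29 of those of 0.5 (58%), 43 of those of 1 and 48 of those of 2. There were 9 false calls. The log2 fold changes of the tested members ran from -0.18 to 0.35, so most changes of their size could be missed. A count of 0 called members thus does not show that they were unchanged. Alternatives comprised quantile normalization, a pseudocount of 0.1, a filter of 5 TPM on the mean or none, scaling to equal upper quartiles, the mitochondrial and the 100 most abundant entries left out, protein-coding entries only, the length trend removed, the replicate number as a block, eBayes without trend, array weights and each library left out. Summing entries of 1 symbol was added after the data were seen. Tables and figures were made in Python 3.11.15 with pandas 2.3.3, numpy 2.4.6 and matplotlib 3.10.9.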

Additional observations from a re-analysis of the deposited data

Results flagged for a closer look

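MMP9 had 1 library far from the others of its group. Empty vector replicate 2 lay at 2.40 on the log2(TPM + 1) scale, and the other 3 empty vector libraries at 1.43 to 1.56, so that the gap to the nearest of them was 0.866 of the range of the group, above Dixon's critical value for 4 samples. It was the only such library in the 44 groups of 4 examined, which are both groups of the 22 tested genes, and chance flags about 1 in 20 groups.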

How the results depend on the processing

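The deposited TPM values give no depth, so differences of genes near 1 TPM could not be judged against counting error. No member was called by limma under 19 of 20 alternatives, and without empty vector replicate 2 there was 1, TIMP2. The number at an unadjusted p of 0.05 or less was 5 of 63 with no filter (8.93% of all entries in that fit), and 1 each of 22 after quantile normalization (12.6%), scaling to equal upper quartiles (12.9%), leaving out the mitochondrial and 100 most abundant entries (13.2%), and removal of the length trend (12.5%), against 3 of 22 (16.5%). It ran from 1 (without Siglec-XII replicate 1, 14.2%) to 6 (without empty vector replicate 2, 19.4%) when a library was left out. The median log2 fold change of the members was 0.0030 with the length trend removed (-0.0003 over all entries of that fit), and ran from 0.05 to 0.13 when a library was left out. The cause of these changes was not tested.

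Of the 18 named members, 10 kept their direction under all alternatives that included them. With the length trend removed, ADAM10 (-0.00451), ADAM9 (-0.00345), MMP15 (-0.00519) and ADAMTS18 (-0.0263) changed sign. So did ADAM9 and ADAMTS18 after quantile normalization (-0.0109 and -0.0374) and at equal upper quartiles (-0.00653 and -0.0419), ADAMTS18 with the most abundant entries left out (-0.0309), and ADAMTS18 (-0.0336) and MMP19 (0.0377) with array weights. When a library was left out, the log2 fold change ran from -0.0430 to 0.0294 for TIMP1, from -0.121 to 0.0647 for MMP19, from -0.0158 to 0.308 for MMP9, from -0.374 to 0.0731 for ADAMTS17 and from -0.0732 to 0.141 for ADAMTS18. With the replicate number as a block, 0 members were called, 3 had an unadjusted p of 0.05 or less, and over all entries 69 were called in place of 101. Correlations of deviations between same-numbered libraries were 0.04, 0.03, -0.07 and 0.06, so no effect shared by replicate number was seen. They cannot tell whether same-numbered libraries were prepared together.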
